A study of Rattus norvegicus with 3 samples.

Results

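Kidney messenger RNA was compared between 1 library of the Dahl salt-sensitive rat (Dahl S) and 1 library of the spontaneously hypertensive rat (SHR). The comparison covers 10812 protein-coding records, out of 22938 protein-coding records and 33194 records of every kind in the deposited tables. A record was taken when no other record shared its locus and its mean over 3 strain libraries was at least 1 FPKM (fragments normalised for transcript length and for the mapped fragments of each library). The Dahl S animals were 53 days old. A library of the Dahl salt-resistant rat (Dahl R), 54 days old, entered the minimum mean and is printed beside the pair for some genes. The SHR animals were 55 days old. The labels give all rats a shared day of birth, weaning at 30 days and then a low-salt diet of 0.3%, so no group had received a high-salt load. Total kidney RNA was extracted with Trizol and depleted of ribosomal RNA, and fragments of about 200 to 300 bases were sequenced. The labels do not say how many animals each library holds, and strain, age and animal cannot be told apart with 1 library a strain.

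Both strains are inbred models of high blood pressure. The Dahl S rat becomes hypertensive when it eats salt, whereas SHR becomes hypertensive with age on ordinary food. The kidney sets blood pressure in the long run by matching sodium excretion to intake, through filtration at the glomerulus and reabsorption along the proximal tubule, loop of Henle, distal tubule and collecting duct. It also activates vitamin D, oxidises fatty acids for fuel and turns arachidonic acid into vasoactive lipids. In bulk tissue, fewer cells of a type and less RNA per cell cannot be told apart.

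Markers of the nephron were present in both libraries, as the tissue label says. *Umod* (uromodulin, loop of Henle) stood at 4028 FPKM in Dahl S and 5783 FPKM in SHR. Its deposited limits ran from 0 to 9561 FPKM in Dahl S and from 5748 to 5817 FPKM in SHR, so its Dahl S value is loose. *Lrp2* (megalin, proximal tubule) stood at 79.1 FPKM in Dahl S and 68.03 FPKM in SHR. *Aqp2* (collecting duct water channel) was at 419.6 FPKM in Dahl S and 591 FPKM in SHR. The libraries differed in bulk composition. Records of the mitochondrial chromosome made up 21.9% of summed FPKM in Dahl S and 28.1% in SHR, and 10 haemoglobin records made up 1.75% in Dahl S and 0.378% in SHR. No source used here gives the read totals. The deposited confidence limits, whose level is not stated either, reached a median of 30.7% of the value away from it in Dahl S and 29.5% in SHR. They describe the estimate in 1 library and not the variation between animals, so no difference could be tested against that variation. Values in parentheses after an FPKM value are these limits.

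The kidneys of both strains had closely similar profiles, and a small set of genes stood far apart. Calls were made by size alone, at a log2 ratio of FPKM plus 1, Dahl S over SHR, of 1 or more in either direction, that is 2-fold. This scale understates the change of low genes, and 2-fold refers to it throughout. Of the 10812 records, 262 (2.42%) were called, 141 (1.3%) higher and 121 (1.12%) lower in Dahl S. The deposited limits did not overlap for 200 of them (1.85%), 105 higher (0.971%) and 95 lower (0.879%), and did overlap for 62. Counting differences of any size, 353 records (3.26%) had limits apart, 153 of them at less than 2-fold. Differences of at least 4-fold were found for 17 records higher and 11 lower in Dahl S. The median log2 ratio over all records was -0.005, and 85.9% of records lay within 0.5 of 0. Across genes, which are not independent replicates, Pearson's r between the log2 values of both libraries was 0.974. Called shares of the gene lists and families below are to be read beside these 2.42%, 1.3% and 1.12% of all records. Most lists are small and were chosen with earlier results of these data known, so their shares are descriptions.

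**Figure D1:**
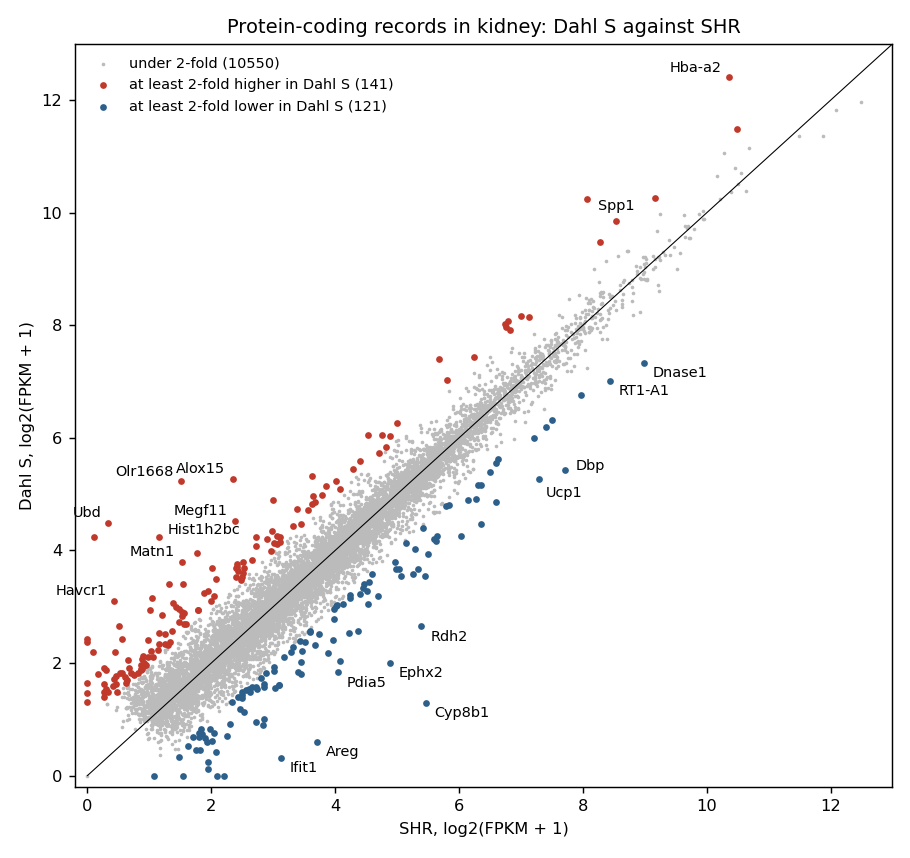
Each point is 1 of the 10812 protein-coding records, with log2(FPKM + 1) in SHR on the x axis and in Dahl S on the y axis, and the line marks equal values. The 141 records at least 2-fold higher in Dahl S are red and the 121 at least 2-fold lower are blue; most points lie along the line.

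Calls were spread over all levels of expression. Among records with a mean of 1 to 2 FPKM, 51 of 1144 (4.46%) were called, and the limits of 22 of these overlapped. Between 20 and 100 FPKM 47 of 2797 (1.68%) were called, and the limits of 2 overlapped. Above 100 FPKM the calls were 18 of 548 records up to 1000 FPKM (3.28%) and 2 of 16 above that. The last group is too small for a share to be read.

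**Figure D2:**
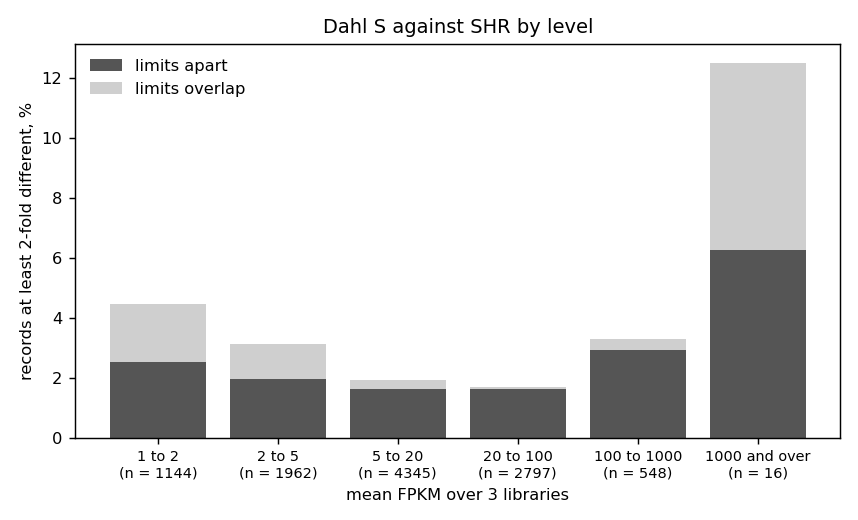
Bars give the percentage of records at least 2-fold different between Dahl S and SHR, by mean FPKM over 3 libraries, with dark parts for records whose deposited limits were apart and light parts for those whose limits overlapped. The share is 4.46% at 1 to 2 FPKM and 1.68% at 20 to 100 FPKM, and the last bar stands on 16 records.

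Several genes of the circadian clock were apart, in both directions. The core clock is a loop in which the activators BMAL1 (gene *Arntl*) and CLOCK or NPAS2 switch on the *Per*, *Cry* and *Ciart* repressors and the output factors *Dbp*, *Tef* and *Hlf*, so that *Arntl* and *Dbp* peak at opposite times of day in many tissues. Of 15 measured clock genes, 5 were called lower and 3 higher in Dahl S, all 8 with limits apart, against 2.42% called among all records. The median of the list was -0.78. The list was chosen with these differences already known, so its count is a description.

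*Dbp*, the D-box activator and the most abundant of the clock genes that were called, stood at 41.9 (32.7 to 51.1) FPKM in Dahl S, 140.0 FPKM in Dahl R and 208 (172 to 244) FPKM in SHR, a log2 ratio of -2.28. Its relatives of the PAR family followed the same order of Dahl S below SHR. *Tef* was at 17.3 (12.96 to 21.7) FPKM in Dahl S and 47.3 (35.9 to 58.6) FPKM in SHR, and *Hlf* at 2.56 (0.751 to 4.38) FPKM in Dahl S and 9.501 (5.43 to 13.6) FPKM in SHR. The repressor *Per3* stood at 4.78 (3.38 to 6.17) FPKM in Dahl S and 17.7 (13.9 to 21.5) FPKM in SHR, and *Ciart* at 0.3701 (0 to 0.797) FPKM in Dahl S and 2.36 (1.25 to 3.47) FPKM in SHR. *Per1*, *Per2* and the deubiquitinase *Usp2* were less than 2-fold lower, at log2 ratios of -0.78, -0.84 and -0.93, with limits apart. Their partners of the positive limb lay the other way. *Arntl* stood at 12.5 (9.95 to 15.1) FPKM in Dahl S, 6.42 FPKM in Dahl R and 4.34 (3.38 to 5.304) FPKM in SHR, and *Npas2* at 8.13 (5.56 to 10.7) FPKM in Dahl S and 3.098 (2.05 to 4.14) FPKM in SHR. *Nfil3*, a repressor that binds the same D-box sites as DBP, had the largest positive ratio of the list, 1.68, at 11.9 (7.803 to 15.9) FPKM in Dahl S against 3.03 (1.81 to 4.24) FPKM in SHR. *Clock* itself, at 9.39 FPKM in Dahl S and 8.14 FPKM in SHR, and *Cry1* and *Cry2* were under 2-fold with overlapping limits. No source used here gives the hour at which kidneys were taken, and it cannot be told apart from strain.

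Promoter letters of these genes show where known clock elements are written. The 250 bases before the start were read for 7 of the 8 called clock genes from RefSeq promoters on GRCr8. This is not the build of the deposited tables, which place *Tef*, for example, at 120153820 to 120179980 on chromosome 7. The E-box CACGTG, which CLOCK and BMAL1 bind and which reads the same on both strands, occurred in 2 of the 7, *Tef* and *Ciart*, and in 5.59% of all 33469 promoters. The RORE letters TAGGTCA, bound by ROR and REV-ERB receptors, occurred on either strand in 1 of the 7, *Arntl* (listed as Bmal1), and in 2.26% of all promoters. The D-box TTATGTAA occurred on either strand in 0 of the 7 and in 0.828% of all promoters. The stretches that hold these letters are printed 5′ to 3′ on the gene's strand, with the element in capitals. Only genes with a match are shown, whatever their direction. Of these, *Tef* and *Ciart* were lower and *Arntl* higher in Dahl S. That of *Tef* is chr7:115206617-115206646 on the + strand, that of *Ciart* is chr2:186112250-186112351 on the - strand and that of *Arntl* is chr1:176766300-176766327 on the + strand. A match describes the letters and is not a known binding site.
Tef: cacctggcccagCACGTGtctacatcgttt
Ciart: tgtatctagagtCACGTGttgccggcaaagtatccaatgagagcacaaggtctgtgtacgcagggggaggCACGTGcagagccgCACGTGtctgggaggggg
Arntl: gaaggcagaaagTAGGTCAgggacggag

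The 3 E-boxes of *Ciart* begin 93, 35 and 21 bases before the start, the E-box of *Tef* begins 198 bases before it and the RORE of *Arntl* 16 bases before it. *Dbp* and *Per3*, both lower in Dahl S, had none of these letters in this window, and neither did *Npas2* and *Nfil3*, both higher.

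**Figure D3:**
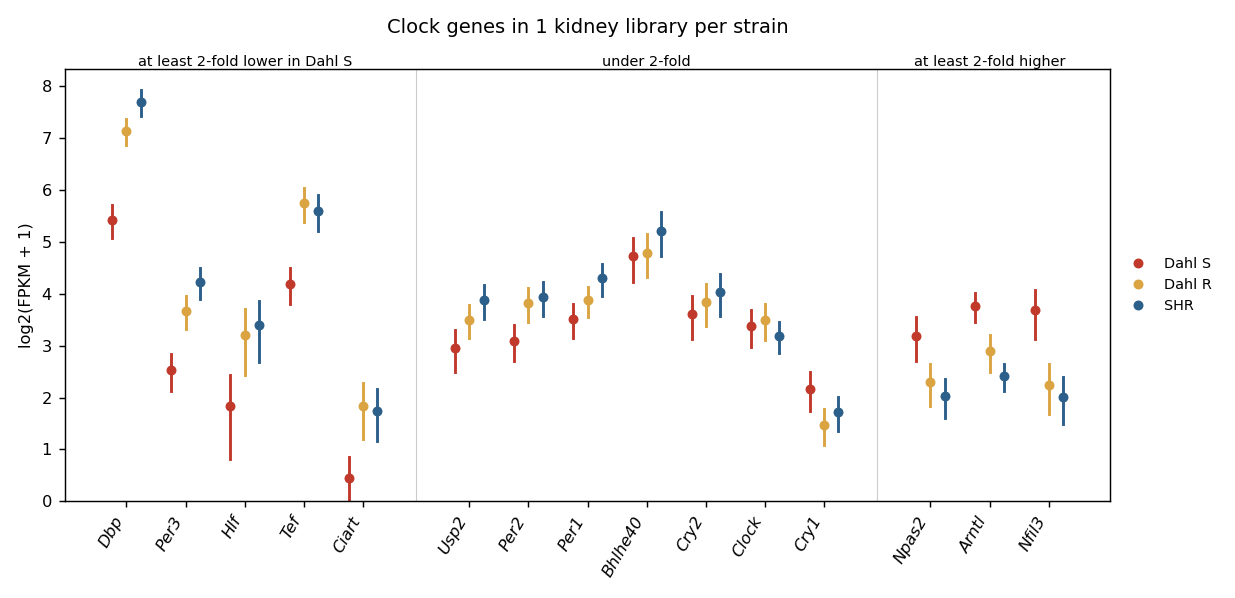
Each point is the log2(FPKM + 1) of a clock gene in the Dahl S (red), Dahl R (yellow) or SHR (blue) library, and vertical lines are the deposited limits on the same scale. Dahl S lies below SHR for the 5 genes on the left, with *Dbp* at 41.9 FPKM in Dahl S against 208 FPKM in SHR, and above SHR for the 3 on the right, while the 7 in the middle are under 2-fold.

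Several genes of fat storage and heat production were lower in Dahl S. Of 13 measured adipocyte genes, 5 were called lower and 0 higher, all 5 with limits apart, beside 1.12% called lower among all records. Of the 13, 12 ratios were below 0 and the median was -0.754. *Ucp1*, which lets brown fat burn fuel as heat, stood at 37.7 (26.2 to 49.2) FPKM in Dahl S and 155 (107 to 203) FPKM in SHR. *Cidea*, a lipid-droplet protein of brown fat, was at 14.4 (8.77 to 19.99) FPKM in Dahl S and 44.5 (31.1 to 57.8) FPKM in SHR. Lipoprotein lipase (*Lpl*), which frees fatty acids from circulating triglyceride, was at 21.2 (15.1 to 27.4) FPKM in Dahl S and 80.9 (54.4 to 107) FPKM in SHR, and the fatty acid carrier *Fabp4* at 63.2 (43.5 to 82.9) FPKM in Dahl S and 148 (105 to 191) FPKM in SHR. Carbonic anhydrase 3 (*Car3*) was at 29.1 (20.3 to 37.9) FPKM in Dahl S and 76.6 (53.9 to 99.4) FPKM in SHR. The adipocyte hormone *Adipoq* (16.6 FPKM in Dahl S and 28.7 FPKM in SHR) and perilipin (*Plin1*, 10.5 FPKM in Dahl S and 18.4 FPKM in SHR) were under 2-fold with overlapping limits, while *Pparg*, the nuclear receptor of fat cell differentiation, stood at 3.76 FPKM in Dahl S and 3.84 FPKM in SHR. Summed over the 17 adipocyte records, of 19 genes listed, found at any level, values came to 305.2 FPKM in Dahl S, 253.6 FPKM in Dahl R and 709.9 FPKM in SHR. Of these records *Lep*, *Elovl3* and *Dio2* were under 1 FPKM in both libraries, with leptin (*Lep*) listed at 0 in Dahl S. Fat cells lie around and inside the renal sinus, and the part of fat attached to the organ in these ratios was not tested.

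The glucose transporter *Slc2a4* (GLUT4), which fat and muscle use under insulin, stood at 8.36 (5.51 to 11.2) FPKM in Dahl S and 20.1 (14.3 to 25.9) FPKM in SHR. Insulin receptor substrate 2 (*Irs2*), which relays the insulin signal, was at 11.04 (7.65 to 14.4) FPKM in Dahl S and 37.1 (25.9 to 48.4) FPKM in SHR. Of 14 lipogenesis genes 2 (14.3%) were called lower and 0 higher. These were the fatty acid desaturase *Scd1*, at 18.2 (14.3 to 22.2) FPKM in Dahl S and 64.2 (45.9 to 82.5) FPKM in SHR, and *Thrsp*, a nuclear protein of lipogenic tissue, at 71.8 (51.00 to 92.6) FPKM in Dahl S and 169 (116 to 222) FPKM in SHR. The last enzyme of triglyceride synthesis, *Dgat2* (27.3 FPKM in Dahl S and 51.1 FPKM in SHR), and acetyl-CoA carboxylase 2 (*Acacb*, 13.8 FPKM in Dahl S and 25.3 FPKM in SHR) were under 2-fold lower with limits apart. *Srebf1*, the transcription factor of this pathway, was close to equal at 27.2 FPKM in Dahl S and 29.99 FPKM in SHR, and cholesterol synthesis had no called gene among 17.

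Oxidation of fatty acids had 1 called gene of 31 (3.23%), near the 2.42% of all records. *Ppara*, the receptor that induces this pathway, stood at 4.197 (2.49 to 5.91) FPKM in Dahl S, 7.37 FPKM in Dahl R and 10.4 (7.13 to 13.7) FPKM in SHR, and the list median was -0.178. The peroxisomal enoyl-CoA reductase *Pecr*, which is not on that list, was at 107 (76.4 to 138) FPKM in Dahl S and 249 (167 to 331) FPKM in SHR.

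Of 9 measured genes of bile acid synthesis, 2 (22.2%) were called lower and 0 higher. *Cyp8b1* (ENSRNOG00000019481, chromosome 8, 127018908 to 127020878, + strand, on the unnamed build of the deposited tables) makes the 12-hydroxyl group of cholic acid, mainly in liver. *Cyp8b1* stood at 1.46 (0.6802 to 2.23) FPKM in Dahl S, 1.45 FPKM in Dahl R and 43.01 (30.5 to 55.5) FPKM in SHR, a log2 ratio of -4.16 and, in FPKM without the added 1, 29.5-fold lower in Dahl S. *Acox2*, the peroxisomal oxidase that shortens the side chain of bile acid precursors, was at 10.7 (7.23 to 14.3) FPKM in Dahl S and 42.6 (30.1 to 55.1) FPKM in SHR. The other 7 of the list were under 2-fold, among them *Cyp27a1* (9.66 FPKM in Dahl S and 14.01 FPKM in SHR) and *Amacr* (154 FPKM in Dahl S and 138 FPKM in SHR). Of the 20 hepatocyte records found at any level, 10 were under 1 FPKM in both libraries. The list summed to 113.5 FPKM in Dahl S, 129 FPKM in Dahl R and 135.6 FPKM in SHR. These sums include *Cyp8b1* itself, with its 43.01 FPKM in SHR, and the higher sum in SHR rests on that gene. Albumin (*Alb*) was at 0.121 FPKM in Dahl S and 0.405 FPKM in SHR, *Ttr* (transthyretin) at 0.110 FPKM in Dahl S and 0.0950 FPKM in SHR, and *Cyp7a1*, the first enzyme of the classical pathway in liver, at 0.161 FPKM in Dahl S and listed at 0 in SHR. Other members of the hepatocyte list were well above 0 and lay on both sides, such as *Tf* (transferrin) at 57.3 FPKM in Dahl S and 31.2 FPKM in SHR, and *Ambp* (the bikunin precursor) at 9.33 FPKM in Dahl S and 12.7 FPKM in SHR. The part of liver RNA in these ratios was not tested.

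The arachidonic acid list had 3 genes called higher and 1 lower out of 34 (11.8% called, beside 2.42% of all records), with a median of 0.051. *Ephx2* (chromosome 15, 45497946 to 45556106, - strand), the soluble hydrolase that inactivates epoxides of arachidonic acid, stood at 3.02 (1.85 to 4.19) FPKM in Dahl S, 1.91 FPKM in Dahl R and 28.5 (20.9 to 35.99) FPKM in SHR. *Cyp2c23*, the main epoxygenase of rat kidney, which makes those epoxides, was higher in Dahl S, at 287 (191 to 383) FPKM against 127 (86.4 to 168) FPKM in SHR, and Dahl R stood above both at 457 FPKM. *Alox15*, a lipoxygenase of leukocytes, was at 37.7 (26.7 to 48.6) FPKM in Dahl S and 4.07 (2.61 to 5.54) FPKM in SHR, and *Akr1b7*, an aldose reductase relative that can form prostaglandin F2 alpha in mouse, at 2.75 (1.404 to 4.098) FPKM in Dahl S and 0.596 (0.203 to 0.989) FPKM in SHR. Omega-hydroxylases of the Cyp4a family, among them enzymes that make the vasoconstrictor 20-HETE, were less far apart, with *Cyp4a2* at 604 FPKM in Dahl S and 378 FPKM in SHR and *Cyp4a8* at 386 FPKM in Dahl S and 312 FPKM in SHR. The cyclooxygenases *Ptgs1* and *Ptgs2* had log2 ratios of -0.45 and 0.60, under 2-fold.

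Retinoid and steroid enzymes had 2 genes called higher and 3 lower out of 31 (16.1% called), with a median of 0.1. *Rdh2*, a retinol dehydrogenase, stood at 5.304 (3.48 to 7.13) FPKM in Dahl S, 30.4 FPKM in Dahl R and 40.9 (32.2 to 49.7) FPKM in SHR. Its neighbour *Rdh7* was at 0.332 (0 to 0.668) FPKM in Dahl S and 3.196 (1.91 to 4.48) FPKM in SHR. *Aldh1a3*, which makes retinoic acid, was at 7.03 (4.004 to 10.1) FPKM in Dahl S and 15.1 (11.2 to 19.03) FPKM in SHR, and this gene drops below 2-fold under the median-of-ratios and upper-quartile scalings. On the higher side were *Akr1c1*, a steroid-reducing aldo-keto reductase, at 30.6 (20.99 to 40.2) FPKM in Dahl S and 12.8 (8.55 to 17.1) FPKM in SHR, and *Cyp24a1*, which inactivates vitamin D, at 2.08 (1.18 to 2.98) FPKM in Dahl S and 0.379 (0.151 to 0.608) FPKM in SHR. The Rdh and Akr1c genes have close copies, and reads may have been shared among them.

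**Figure D4:**
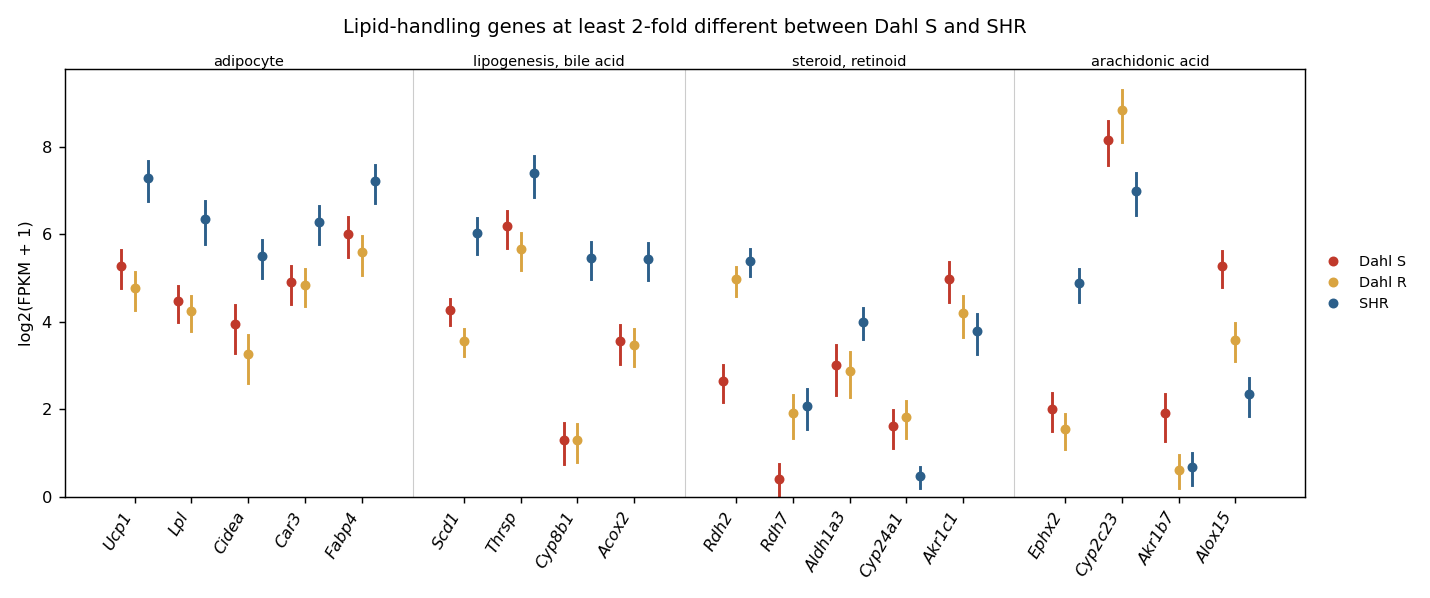
Points give log2(FPKM + 1) in the Dahl S (red), Dahl R (yellow) and SHR (blue) libraries for the called genes of 5 lists, with the deposited limits as vertical lines. SHR is the highest library for the adipocyte, lipogenesis and bile acid genes, whereas *Alox15*, *Akr1b7* and *Akr1c1* are highest in Dahl S.

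Along the nephron, few marker genes reached 2-fold. Of 27 proximal tubule genes 17 had ratios above 0, 2 (7.41%) were called higher and 0 lower, and the median was 0.26. The creatine pathway enzyme *Gatm* stood at 241 (171 to 310.1) FPKM in Dahl S and 113 (80.1 to 145) FPKM in SHR, and *Keg1*, a glycine N-acyltransferase relative, at 28.02 (19.7 to 36.3) FPKM in Dahl S and 11.8 (8.17 to 15.4) FPKM in SHR. The sulfate carrier *Slc13a1*, the cystine carrier subunit *Slc7a9* and the glucose carrier *Slc2a2* had log2 ratios of 0.96, 0.89 and 0.69 with limits apart, under 2-fold. The gluconeogenic enzyme *Pck1* (90.4 FPKM in Dahl S, 324 FPKM in Dahl R and 164 FPKM in SHR) and the sodium-proton exchanger *Slc9a3* (36.8 FPKM in Dahl S and 63.2 FPKM in SHR) lay below 0.

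The loop of Henle list had a median of -0.374 over 10 genes and none was called. *Slc12a1*, the furosemide-sensitive sodium cotransporter, stood at 299.9 (242 to 357) FPKM in Dahl S and 485 (366 to 604) FPKM in SHR, limits apart at a log2 ratio of -0.69. The acid-base list of intercalated cells had 15 of 16 ratios below 0, a median of -0.382 and none called; the band 3 exchanger *Slc4a1* was at 144 FPKM in Dahl S and 224 FPKM in SHR. Of 11 principal cell genes, 10 were below 0 and 2 (18.2%) were called lower. *Stc1* (stanniocalcin) stood at 7.25 (4.71 to 9.79) FPKM in Dahl S and 22.1 (15.7 to 28.5) FPKM in SHR, and the transcription factor *Elf5* at 1.64 (0.548 to 2.74) FPKM in Dahl S and 4.398 (2.42 to 6.38) FPKM in SHR with overlapping limits. The *Elf5* call is lost under upper-quartile scaling. The sodium and chloride transport list had none called among 29 and a median of -0.218, beside -0.005 for all records. *Slc12a3*, the thiazide-sensitive cotransporter, was at 135 FPKM in Dahl S and 170.1 FPKM in SHR, and the sodium channel subunit *Scnn1a* at 41.7 FPKM in Dahl S and 52.1 FPKM in SHR.

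Endothelial genes had 10 of 11 ratios below 0, none called, and a median of -0.248. Podocyte genes were balanced, with 6 ratios on each side of 0 and none called of 12.

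Calls in hormone systems that act on the kidney fell on single genes, in both directions. Angiotensinogen (*Agt*), the precursor of the pressor hormone angiotensin, was called higher, at 52.2 (37.1 to 67.3) FPKM in Dahl S, 60.4 FPKM in Dahl R and 25.3 (17.9 to 32.6) FPKM in SHR. The converting enzyme *Ace* (4.95 FPKM in Dahl S and 3.74 FPKM in SHR) and the receptor *Agtr1a* (27.5 FPKM in Dahl S and 29.5 FPKM in SHR) had overlapping limits. The vasodilator peptide *Adm2* stood at 33.1 (24.8 to 41.4) FPKM in Dahl S and 15.9 (11.7 to 20.1) FPKM in SHR, a ratio of 1.01 that drops below 2-fold with mitochondrial and haemoglobin records left out of the totals. Uroguanylin (*Guca2b*), a natriuretic peptide, was at 1.97 (0.115 to 3.82) FPKM in Dahl S, 11.97 FPKM in Dahl R and 5.296 (2.696 to 7.896) FPKM in SHR, limits overlapping. Kidney kallikrein *Klk1* (15.6 FPKM in Dahl S and 23.4 FPKM in SHR) and endothelial nitric oxide synthase *Nos3* (8.704 FPKM in Dahl S and 10.1 FPKM in SHR) were not called. Of 8 measured genes of the kallikrein family, 7 ratios were below 0 and 1 above. None was called, and the family median was -0.624.

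Mineral hormones and their targets had 2 genes called higher and 1 lower of 17 (17.6% called), with a median of 0.221. Besides *Cyp24a1* and *Stc1*, these were *Galnt3*, which glycosylates the phosphate hormone FGF23, at 19.3 (13.5 to 25.1) FPKM in Dahl S and 6.93 (4.698 to 9.16) FPKM in SHR. The phosphate carrier *Slc34a2* was at 30.6 FPKM in Dahl S and 16.6 FPKM in SHR with limits apart, under 2-fold. *Pthlh* was listed at 0 in Dahl S and at 3.62 (0 to 7.800) FPKM in SHR, on a locus of 102 bases.

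Over 26 measured genes of interest for blood pressure, 2 were called higher and 2 lower (15.4% called), and the median was -0.13. Among those called were *Gstm1* and *Agt* on the higher side and *Ephx2* on the lower. The cytoskeletal protein adducin 1 (*Add1*), whose variants are tied to pressure in another hypertensive rat strain, stood at 142 FPKM in Dahl S and 147 FPKM in SHR. The calcium sensor *Stim1* was at 10.9 FPKM in Dahl S and 11.3 FPKM in SHR.

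Several markers of tubular injury were higher in Dahl S. Of 19 measured, 5 were called higher with limits apart and 0 lower, beside 1.3% called higher among all records, and 16 ratios were above 0 with a median of 0.577. *Havcr1* (kidney injury molecule) stood at 7.64 (4.998 to 10.3) FPKM in Dahl S, 0.653 FPKM in Dahl R and 0.3399 (0.116 to 0.564) FPKM in SHR. Osteopontin (*Spp1*) was at 929 (618 to 1240.5) FPKM in Dahl S, 352 FPKM in Dahl R and 370.4 (254 to 487) FPKM in SHR. The chaperone clusterin (*Clu*), the progenitor marker *Prom1* and the iron-siderophore carrier *Lcn2* had ratios of 1.20, 1.15 and 1.02. The growth regulator *Myc* and the chemokine *Ccl2* did not reach the threshold, at ratios of 0.92 and 0.88 with overlapping limits, and the epithelial keratin *Krt19* lay the other way at 37.98 FPKM in Dahl S and 67.3 FPKM in SHR. Haem oxygenase (*Hmox1*), which degrades haem, was at 17.6 FPKM in Dahl S and 8.62 FPKM in SHR with limits apart, under 2-fold. The alpha globin record *Hba-a2*, 1 of several near-identical copies, stood at 5445 (2579 to 8311) FPKM in Dahl S, 2321 FPKM in Dahl R and 1319.8 (778 to 1862) FPKM in SHR. The 10 red blood cell records found at any level summed to 13040 FPKM in Dahl S, 5463 FPKM in Dahl R and 3204 FPKM in SHR, and the part of blood left in the organ in the genes higher in Dahl S was not tested.

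Immune cell genes had few calls. Of 17 macrophage genes, 16 ratios were above 0 with a median of 0.507 and none was called, and summed FPKM of the 21 macrophage records found at any level was 727.5 in Dahl S and 580.4 in SHR, with Dahl R at 618.6. T and B lymphocyte genes had 2 of 13 called higher, beside 1.3% of all records, namely the CD3 chains of the T cell receptor. *Cd3g* was at 2.92 (1.12 to 4.71) FPKM in Dahl S and 0.819 (0.1503 to 1.49) FPKM in SHR, limits overlapping, and *Cd3d* at 1.47 (0.358 to 2.57) FPKM in Dahl S and listed at 0 in SHR. The B cell genes *Cd79a* (4.94 FPKM in Dahl S and 5.72 FPKM in SHR) and *Cd79b* (2.52 FPKM in Dahl S and 1.95 FPKM in SHR) had ratios of -0.18 and 0.26. *Ctsw*, a protease of cytotoxic lymphocytes, was at 6.52 (3.85 to 9.202) FPKM in Dahl S and 1.88 (0.9701 to 2.78) FPKM in SHR, and *Rgs1*, a brake on chemokine receptor signals, at 1.996 (0.901 to 3.09) FPKM in Dahl S and 0.327 (0.0345 to 0.619) FPKM in SHR. The neutrophil list had 4 of 6 ratios below 0 and a median of -0.159, with *Lcn2* called higher and *Mmp9* lower.

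Genes of the major histocompatibility complex, which present antigen, differed in both directions. The class II chain *RT1-Bb* stood at 169 (118 to 219.9) FPKM in Dahl S and 49.95 (35.5 to 64.4) FPKM in SHR, while *RT1-Db2* was at 11.7 (6.797 to 16.5) FPKM in Dahl S and 31.7 (21.7 to 41.7) FPKM in SHR. Among class I genes *RT1-CE10* was at 65.5 (46.8 to 84.2) FPKM in Dahl S and 22.1 (16.4 to 27.9) FPKM in SHR, and *RT1-A1* at 129 (91.3 to 166) FPKM in Dahl S and 345 (217 to 473) FPKM in SHR. The list of 19 genes of class II and antigen presentation, which holds neither of these class I genes, had 1 call each way (10.5% called) and a median of 0.346. RT1 genes are near-identical copies that differ in sequence between inbred strains, and reads may have been shared among them.

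The complement list had 2 of 17 (11.8%) called higher and a median of 0.241. These were *C4b*, at 30.3 (21.5 to 39.2) FPKM in Dahl S and 11.5 (8.22 to 14.9) FPKM in SHR, and *Clu*. The interferon list had 1 of 39 called higher and 2 lower (7.69% called), with a median of 0.065. *Ubd* (chromosome 20, 1475950 to 1477895, - strand), a ubiquitin-like tag that tumour necrosis factor and interferon gamma induce, stood at 21.5 (14.2 to 28.9) FPKM in Dahl S, 4.66 FPKM in Dahl R and 0.262 (0 to 0.634) FPKM in SHR, with a log2 ratio of 4.16, the highest of all records with a gene symbol. *Ifit1*, which binds viral RNA, was at 0.244 (0 to 0.552) FPKM in Dahl S and 7.72 (5.02 to 10.4) FPKM in SHR, and the antiviral GTPase *Mx2* at 7.95 (5.92 to 9.99) FPKM in Dahl S and 17.8 (13.6 to 22.03) FPKM in SHR. A further pair had limits apart under 2-fold, in opposite directions. The RNA sensor *Ddx58* was at 10.1 FPKM in Dahl S and 18.5 FPKM in SHR, and *Ifi27* at 192 FPKM in Dahl S and 115 FPKM in SHR. The quartiles of the list were -0.206 and 0.346, and *Isg15* (22.5 FPKM in Dahl S and 20.6 FPKM in SHR) and *Stat2* (19.4 FPKM in Dahl S and 20.03 FPKM in SHR) lay between them.

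Coagulation genes had 1 called higher and 3 lower of 19 (21.1% called), with a median of -0.049. Prothrombin (*F2*) stood at 11.9 (7.92 to 15.9) FPKM in Dahl S and 4.24 (2.699 to 5.79) FPKM in SHR. Antithrombin (*Serpinc1*), which inhibits thrombin, was at 8.18 (5.33 to 11.03) FPKM in Dahl S, 47.2 FPKM in Dahl R and 24.8 (17.9 to 31.7) FPKM in SHR. Factor V (*F5*), the cofactor in prothrombin activation, was at 2.03 (1.41 to 2.65) FPKM in Dahl S and 7.49 (5.42 to 9.56) FPKM in SHR, and the factor XIII carrier chain *F13b* at 2.32 (1.07 to 3.57) FPKM in Dahl S and 5.94 (4.23 to 7.66) FPKM in SHR.

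Growth factors had 1 gene called of 37 (2.7%), near the 2.42% of all records. Amphiregulin (*Areg*), a ligand of the epidermal growth factor receptor, stood at 0.512 (0 to 1.02) FPKM in Dahl S, 1.74 FPKM in Dahl R and 12.1 (7.96 to 16.2) FPKM in SHR, a log2 ratio of -3.11. *Egf* itself was at 288 FPKM in Dahl S and 449.6 FPKM in SHR, *Vegfa* at 116 FPKM in Dahl S and 178 FPKM in SHR with limits apart, and the receptor *Egfr* at 2.61 FPKM in Dahl S and 2.92 FPKM in SHR. The called share of 27 immediate early genes was 3.7%, also near that of all records. *Egr1* alone was called, lower at 10.97 (7.49 to 14.5) FPKM in Dahl S and 23.3 (16.5 to 29.97) FPKM in SHR, a call lost under upper-quartile scaling. *Fos* (2.34 FPKM in Dahl S and 1.91 FPKM in SHR) and *Jun* (56.7 FPKM in Dahl S and 49.7 FPKM in SHR) were not.

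Matrix genes had 1 call each way of 32 (6.25% called). The basement membrane linker *Nid1* stood at 129 (86.9 to 172) FPKM in Dahl S, 166 FPKM in Dahl R and 54.7 (37.4 to 72.04) FPKM in SHR, and gelatinase B (*Mmp9*) at 3.04 (1.98 to 4.104) FPKM in Dahl S and 9.87 (7.11 to 12.6) FPKM in SHR. Claudins, which seal and select at tight junctions, had 2 of 13 (15.4%) called lower. *Cldn6* was at 4.900 (2.84 to 6.96) FPKM in Dahl S and 19.7 (13.8 to 25.6) FPKM in SHR. Its neighbour *Cldn9* was at 2.06 (0.722 to 3.39) FPKM in Dahl S and 7.51 (4.46 to 10.6) FPKM in SHR.

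Some enzymes that detoxify foreign compounds were apart, in both directions. Of 29 phase I genes 10.3% were called. *Adh1* (alcohol dehydrogenase) was called higher, at 36.6 (25.9 to 47.4) FPKM in Dahl S and 15.2 (10.6 to 19.9) FPKM in SHR, and the adjacent P450 genes *Cyp2d1* and *Cyp2d5* were called lower. *Cyp2d1* stood at 18.02 (12.2 to 23.8) FPKM in Dahl S, 57.6 FPKM in Dahl R and 48.8 (34.6 to 62.97) FPKM in SHR. Over the whole P450 family, 2 of 32 measured genes were called higher and 3 lower (15.6% called). Conjugating enzymes had 4 called higher and 1 lower of 30 (16.7% called). *Gstm1*, a glutathione transferase, was at 42.4 (31.2 to 53.5) FPKM in Dahl S and 18.5 (13.6 to 23.4) FPKM in SHR, and its relative *Gstm7* at 12.9 (8.27 to 17.5) FPKM in Dahl S and 4.69 (2.84 to 6.53) FPKM in SHR. *Acsm3*, a medium-chain acyl-CoA synthetase, was lower at 46.1 (33.7 to 58.5) FPKM in Dahl S and 95.5 (67.9 to 123) FPKM in SHR, a call also lost under upper-quartile scaling. The other 13 glutathione transferases measured were under 2-fold and lay on both sides of 0, for example *Gstp1* at 369 FPKM in Dahl S and 243 FPKM in SHR and *Gsta2* at 215 FPKM in Dahl S and 335 FPKM in SHR. Both measured UDP-glucuronosyltransferases were higher, *Ugt2b36* at 15.9 (10.8 to 21.1) FPKM in Dahl S and 5.57 (3.596 to 7.53) FPKM in SHR and *Ugt2b7* at 1.81 (0.899 to 2.73) FPKM in Dahl S and 0.388 (0.129 to 0.646) FPKM in SHR. Reads of near-identical members of these families may have been shared between copies.

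Antioxidant genes had 3 of 32 (9.38%) called higher and 0 lower, with a median of 0.171. Extracellular superoxide dismutase (*Sod3*) stood at 282 (189 to 375) FPKM in Dahl S and 139 (94.5 to 184) FPKM in SHR, and plasma glutathione peroxidase (*Gpx3*) at 2869 (1596 to 4142) FPKM in Dahl S and 1433 (837 to 2029) FPKM in SHR with overlapping limits. Both ratios, 1.01 and 1.001, drop below 2-fold with mitochondrial and haemoglobin records left out of the totals. *Gpx2*, the epithelial peroxidase, was at 10.6 (5.92 to 15.3) FPKM in Dahl S and 4.66 (2.44 to 6.87) FPKM in SHR, limits overlapping. *Ethe1*, a mitochondrial enzyme that removes sulfide, was at 249.8 (175 to 325) FPKM in Dahl S and 107 (75.6 to 138) FPKM in SHR.

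Several abundant genes of other functions were apart. On the higher side with limits apart were transglutaminase 2 (*Tgm2*), which crosslinks matrix proteins, at 271 (206 to 335) FPKM in Dahl S and 109.8 (84.5 to 135) FPKM in SHR, and the transcriptional regulator *Tsc22d1* at 259 (192 to 327) FPKM in Dahl S and 107 (81.4 to 132) FPKM in SHR. The stress-responsive *Ndrg1* stood at 716 (398 to 1034) FPKM in Dahl S and 308 (181 to 436) FPKM in SHR and the lysosomal protease *Ctsl1* at 1227 (672 to 1783) FPKM in Dahl S and 574 (344 to 805) FPKM in SHR, both with overlapping limits. On the lower side were the secreted endonuclease *Dnase1*, at 160.2 (113 to 208) FPKM in Dahl S, 394 FPKM in Dahl R and 504 (306 to 702) FPKM in SHR, the stress protein *Nupr1* at 28.2 (18.2 to 38.2) FPKM in Dahl S and 95.9 (68.2 to 124) FPKM in SHR, and the linker histone *H1f0* at 78.6 (55.8 to 101) FPKM in Dahl S and 181 (120.0 to 241) FPKM in SHR. The taurine carrier *Slc6a6* was at 34.9 (24.8 to 45.1) FPKM in Dahl S and 77.8 (53.5 to 102) FPKM in SHR, and the lactate carrier *Slc16a1* lay the other way at 16.5 (11.6 to 21.5) FPKM in Dahl S and 7.05 (4.85 to 9.24) FPKM in SHR.

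Some of the largest ratios were in genes better known from other tissues or in no list. *Olr1668*, annotated as an olfactory receptor, stood at 36.5 (24.9 to 48.02) FPKM in Dahl S, 32.8 FPKM in Dahl R and 1.84 (0.851 to 2.83) FPKM in SHR. *Matn1*, a cartilage matrix protein, was at 12.9 (8.599 to 17.2) FPKM in Dahl S, 13.2 FPKM in Dahl R and 1.88 (1.06 to 2.704) FPKM in SHR. *Dnm1*, the dynamin of synaptic vesicle uptake, was at 28.7 (24.1 to 33.4) FPKM in Dahl S and 6.96 (5.58 to 8.35) FPKM in SHR, *Megf11* at 22.1 (17.98 to 26.1) FPKM in Dahl S and 4.199 (3.23 to 5.17) FPKM in SHR, and the capsaicin receptor *Trpv1* at 9.53 (6.84 to 12.2) FPKM in Dahl S and 1.905 (1.25 to 2.56) FPKM in SHR. The histone gene *Hist1h2bc*, on a locus of 381 bases, was at 17.8 (10.2 to 25.5) FPKM in Dahl S and 1.22 (0.168 to 2.27) FPKM in SHR. On the lower side stood the disulfide isomerase *Pdia5*, at 2.58 (1.53 to 3.63) FPKM in Dahl S and 15.5 (11.4 to 19.6) FPKM in SHR, the defensin *Defb11* at 3.08 (0 to 6.16) FPKM in Dahl S and 15.9 (8.496 to 23.4) FPKM in SHR, and the cAMP phosphodiesterase *Pde4c* at 11.8 (7.89 to 15.7) FPKM in Dahl S and 39.6 (28.05 to 51.1) FPKM in SHR.

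Large parts of the basic machinery showed no call, beside 2.42% called among all records. At that share a small family can hold no called gene, so the lack of a call does not set it apart. None was called among 34 cytosolic ribosomal proteins, 54 mitochondrial ribosomal proteins, 64 nuclear subunits of oxidative phosphorylation (median -0.104), 32 proteasome subunits, 42 heat shock proteins, 156 zinc finger proteins, 24 cell cycle genes or 25 ABC transporters. Solute carriers, the largest family examined, had 4 called higher and 3 lower of 197, 3.55% against 2.42% of all records. In all, 16 of 54 gene lists and 24 of 48 symbol families had no called member.

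**Figure D5:**
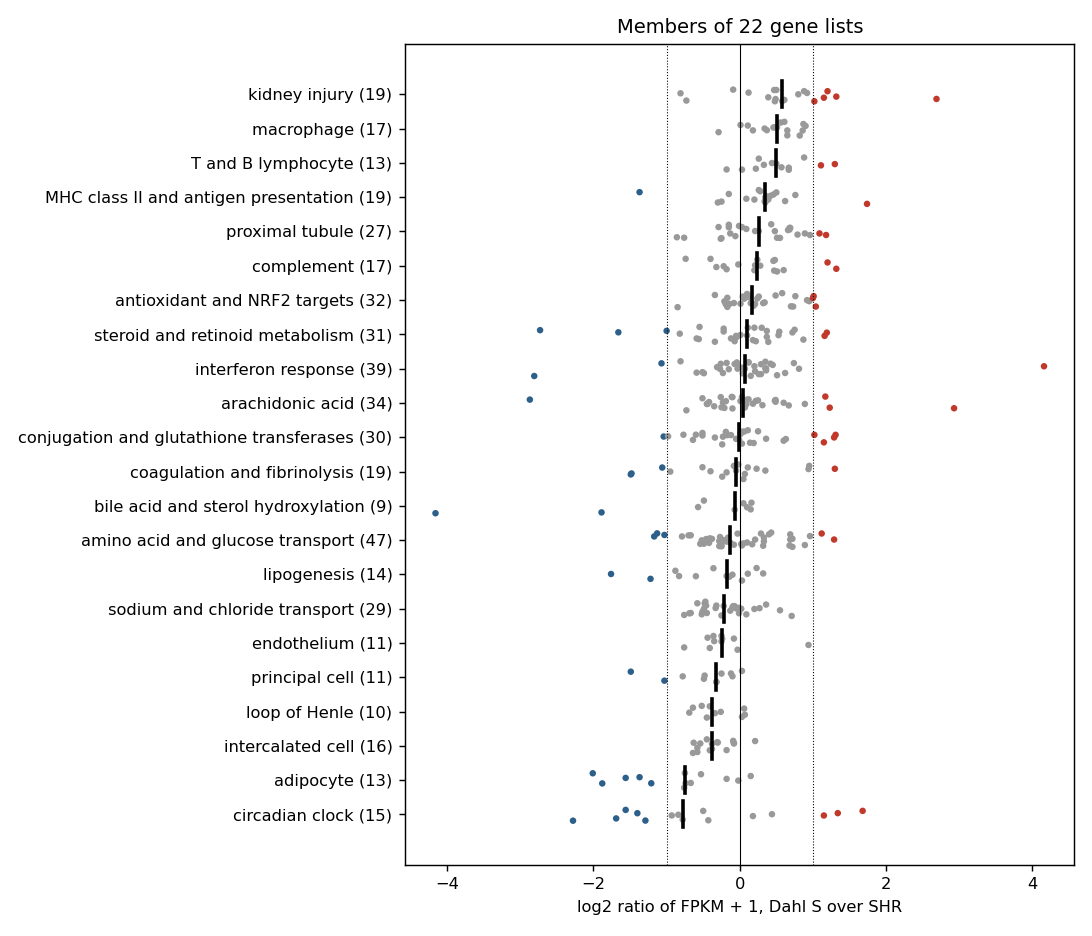
Each point is a measured member of 1 of 22 gene lists (number of members in brackets), placed by its log2 ratio of FPKM + 1, Dahl S over SHR, with black bars at list medians and dotted lines at 2-fold. Kidney injury (median 0.577) lies at the top and the circadian clock (-0.78) at the bottom, and most points lie between the dotted lines.

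Called genes sometimes lay next to each other on the chromosome. Of 10789 pairs of neighbouring records in the set, both were called in 24, in the same direction in 19 and in opposite directions in 5. Of single records 2.42% were called, and the number of pairs that share alone would give was not worked out. Several pairs are relatives of 1 gene family, and reads may have been shared between them. *Acsm3* and *Eri2*, an exoribonuclease gene 80 bases away, were both lower in Dahl S, at ratios of -1.04 and -1.02. A run on chromosome 7 from *Rdh2* to *Rdh7*, with 2 unnamed records between them, was lower throughout, at ratios of -2.73, -1.71, -1.32 and -1.66. *Fbxo36* and the monocarboxylate carrier *Slc16a14* on chromosome 9 were both higher, at 11.4 and 34.5 FPKM in Dahl S and 4.37 and 13.5 FPKM in SHR. *Glyatl1* and *Keg1*, *Adh1* and *Adh6*, *Cd3g* and *Cd3d*, *Ehf* and *Elf5*, and *Cldn6* and *Cldn9* were further pairs with the same direction. The calls of *Acsm3*, *Eri2*, *Ehf* and *Elf5* are lost under upper-quartile scaling. In contrast, *Clu* and *Ephx2*, 92622 bases apart on chromosome 15, had ratios of 1.20 and -2.87.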

How the data were processed

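Kidney RNA of 1 Dahl S, 1 Dahl R and 1 SHR library was depleted of ribosomal RNA and sequenced, per the labels' protocols. The authors deposited an FPKM value with lower and upper confidence limits for each of 33194 gene records, per the file headers. TopHat 1.3.1 and Cufflinks 1.0.3 are named in the submitters' processing notes. The sources used here do not give the genome build, gene annotation, confidence level, read totals or use of strand, so depth is unknown, and overlapping or antisense genes cannot be told apart. The positions in the tables count from 0 at the start, and 1 was added.

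Protein-coding records alone at their locus were kept when their mean over 3 libraries was at least 1 FPKM, which left 10812 of 22938. The difference was the log2 ratio, Dahl S over SHR, after adding a pseudocount of 1 FPKM, which understates the change of low genes. A record was called at 2-fold or more, and the deposited limits were checked for overlap. With 1 library a strain no test was possible. The calculation was tested on simulated data.

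Symbols came from the record's name for 7896 records, its description for 29, its UniProt entry for 95, and a RefSeq accession or synonym for 256 and 7; 2529 records had none. The RefSeq table of assembly GRCr8 served for names and promoters only. Of 1540 genes in 54 lists, 1367 were matched to a record, and 986 were in the set compared. Members and lists were chosen with earlier results of these data known. Genes named by rule were the 15 highest and 15 lowest ratios with a mean of at least 5 FPKM and limits apart, the 8 most abundant called genes with limits apart in each direction, up to 4 called genes per list (or the 2 most abundant where none was), up to 3 per symbol family, genes listed at 0 in 1 of the 2 strains and at least 2 FPKM in the other, and the blood pressure list. Some genes that the rule selects are not reported here. Genes named beside these were chosen after their values were seen. Alternatives were other pseudocounts, minimum means, scalings, locus rules and the removal of 3 lists. Computing used Python 3.11.15, pandas 2.3.3, numpy 2.4.6 and scipy 1.17.1, and figures matplotlib 3.10.9.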

Additional observations from a re-analysis of the deposited data

How the results depend on the processing

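With 1 library a strain, no difference was set against the spread between animals, and the deposited limits cover the estimate within a library only. No paired analysis was possible because each strain has 1 library and no result comes from a test. The pseudocount moved the counts most. With 0.1 FPKM in place of 1 FPKM, 521 records were called, 294 higher and 227 lower in Dahl S. With 5 FPKM, 80 were called, 40 higher and 40 lower, and 78 of them had limits apart, 38 higher and 40 lower. Then 40 list members were called, against 79, and 62 of the 121 called genes named by rule were still 2-fold. A minimum mean of 5 FPKM gave 150 called records, 77 higher and 73 lower, 133 with limits apart, 65 of these higher. With records that share a locus included, 421 were called, 224 higher and 197 lower, 304 with limits apart, 162 of these higher. Fewer or more records enter under both of these settings by construction. The other 7 settings gave between 244 and 330 called records. Rescaling SHR shifted the median of all records from -0.005 to 0.006 (median of ratios), 0.035 (upper quartile) or -0.018 (totals without mitochondrial and haemoglobin records), and the share of calls that were higher lay between 50.0% and 59.9% over all settings. No called gene named by rule changed sign under any setting. The list medians of bile acid, cell cycle, conjugation, hepatocyte, immediate early, iron, neutrophil, podocyte, smooth muscle and retinoid genes changed sign under at least 1 setting, so they carry no direction. Low records had the widest limits, and calls there rest on the least signal.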

Other observations

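Called genes that belong to none of the lists included signalling genes on both sides. *Cish*, a feedback inhibitor of cytokine receptors, stood at 26.5 (18.5 to 34.5) FPKM in Dahl S and 54.6 (38.5 to 70.6) FPKM in SHR, a call lost under upper-quartile scaling. The salt-inducible kinase *Sik1* was at 4.83 (3.15 to 6.51) FPKM in Dahl S and 11.1 (7.87 to 14.3) FPKM in SHR. The ATP-gated channel *P2rx4* was at 15.3 (11.4 to 19.3) FPKM in Dahl S and 38.3 (30.2 to 46.4) FPKM in SHR, and the ATP and UTP receptor *P2ry4* at 0.698 (0.128 to 1.27) FPKM in Dahl S and 2.499 (1.36 to 3.64) FPKM in SHR. *Kcnk3*, an acid-sensitive background potassium channel, was at 5.85 (3.88 to 7.82) FPKM in Dahl S and 14.8 (10.98 to 18.5) FPKM in SHR, and *Rgc32*, a cell cycle regulator induced by complement, at 34.6 (21.6 to 47.6) FPKM in Dahl S and 80.7 (56.1 to 105) FPKM in SHR. Higher in Dahl S were the alpha-1D adrenergic receptor *Adra1d*, at 5.45 (3.66 to 7.24) FPKM against 1.95 (1.14 to 2.75) FPKM in SHR, and the pentraxin *Apcs*, at 27.4 (18.3 to 36.6) FPKM against 11.3 (7.31 to 15.4) FPKM in SHR. The elastase *Cela1* was at 47.3 (33.1 to 61.5) FPKM in Dahl S and 20.2 (13.96 to 26.5) FPKM in SHR, and the mitotic motor *Kifc1* at 25.3 (19.1 to 31.5) FPKM in Dahl S and 10.8 (7.998 to 13.6) FPKM in SHR. These genes were chosen after their values were seen, apart from *Kcnk3*.

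The share of called records differed among chromosomes, with no test of the spread. Chromosome 20, which holds the RT1 genes, had 13 of 279 called (4.66%), 9 higher and 4 lower, and chromosome 17 had 15 of 353 (4.25%), 12 higher and 3 lower in Dahl S. Chromosome 12 had 3 of 365 (0.822%) and chromosome 16 had 5 of 333, all lower, against 2.42% over all records. A record on chromosome 3 known only by its locus name, LOC100362296, lies on a locus of 312 bases. It stood at 17.8 (9.73 to 25.9) FPKM in Dahl S, 0.117 FPKM in Dahl R and 0.0707 (0 to 0.354) FPKM in SHR. *Hfe2* (hemojuvelin, a regulator of the iron hormone hepcidin) was at 4.36 (2.84 to 5.89) FPKM in Dahl S, 0.553 FPKM in Dahl R and 0.475 (0.0762 to 0.874) FPKM in SHR. The helicase gene *Rtel1* lay on the other side, with 9.89 FPKM in Dahl S, 30.6 FPKM in Dahl R and 22.3 FPKM in SHR.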
